A study of Rattus norvegicus with 24 samples.

Results

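Whole-blood gene expression was compared between 6 male CDF Fisher 344 rats that had inhaled crystalline silica and 6 that had breathed air. Silica was given at 15 mg/m3 for 6 h a day on 5 days, and blood was taken 32 weeks after the last exposure, so the values describe a late state after a short exposure. The age on the labels is 3 months, and each array held the RNA of a different rat. These 12 blood arrays are part of a series of 24, the other 12 being lungs of the same rats. Globin mRNA was depleted from the blood RNA before it was labelled and hybridised to Illumina rat bead arrays. Of 21792 rows on the array, each with a symbol of its own, 7864 were tested, those that 6 or more of the 12 blood arrays detected at a detection p below 0.05. Levels are given as log2 intensities after background correction and quantile normalization of the 12 arrays, and differences are silica minus air on that log2 scale. No level of a gene is set against that of another, since bead types differ in brightness.

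Crystalline silica is a particle that macrophages of the lung take up and cannot degrade. It is known to damage lysosomes, to activate the NLRP3 inflammasome and interleukin-1 release, and to hold the lung in chronic inflammation that draws neutrophils from blood. Whole blood holds red cells and platelets besides leukocytes, and in the rat lymphocytes usually outnumber neutrophils. In such bulk samples, fewer cells of a type and less RNA per cell cannot be told apart.

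Markers of blood were present. Haemoglobin genes were still bright after the depletion (Hba-a2, mean log2 intensity 14.22), as were the platelet chemokine Pf4 (14.04) and the T cell receptor subunit Cd3g (10.67). None of the 7 lung epithelial genes on the array was tested, and the surfactant genes Sftpc, Sftpb, Sftpa1 and Sftpd were detected on 0 of 12 arrays. None of 7 stromal genes was tested either, and of 7 endothelial genes only Tie1 was detected often enough. The arrays detected between 7498 and 8469 rows, with overlapping ranges in air (7609 to 8469) and silica (7498 to 8338). Air replicates 2 and 6 and silica replicate 6 stood apart from the other 9 arrays. Counts of most gene lists are also given without these 3.

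After silica, 4 genes rose in blood and none fell at an adjusted p under 0.05 (limma, Benjamini-Hochberg over 7864 rows). They were Slpi, which encodes a secreted inhibitor of neutrophil proteases, Ppp1r3b, a glycogen-targeting subunit of protein phosphatase 1, the zinc finger gene Zfp532 and LOC313824, which has only a locus name. The 4 rises are 0.0509% of the rows tested, and the 0 falls are 0.0%. The differences were small, between 1.49-fold and 1.65-fold. At an unadjusted p under 0.05, 697 rows differed (8.86% of those tested), 382 higher and 315 lower after silica. When the arrays were scaled to equal medians in place of quantiles, this split was 376 higher and 49 lower.

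For Slpi, the lowest, median and highest levels were 10.11, 10.23 and 10.67 after air, against 10.75, 11.04 and 11.37 after silica. Every silica rat therefore lay above every air rat. The difference was 0.72 ± 0.12 (SE), or 1.65-fold, with an adjusted p of 0.0481. Zfp532 was at 5.289, 5.447 and 5.559 after air and at 5.71, 6.156 and 6.199 after silica. Its groups were also apart, by 0.62 ± 0.097 (SE, adjusted p 0.0304), at a level near the dim end of the array. The size of this difference depends on the background, as given below. LOC313824 ran from 6.975 to 7.181 in air (median 7.142) and from 7.451 to 7.894 in silica (median 7.777). The difference was 0.60 ± 0.094 (SE, adjusted p 0.0304). Ppp1r3b lay between 6.851 and 7.098 in air (median 6.963) and between 7.259 and 7.708 in silica (median 7.582), a difference of 0.57 ± 0.095 (SE, adjusted p 0.041). Over all rows, groups did not overlap in 30 rows higher after silica (0.381% of those tested) and in 17 lower (0.216%), these 4 among the former.

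Most single rats decided whether any row passed. With any of air replicates 1, 3, 4, 5 and 6 or silica replicates 1, 3 and 5 left out, no row passed, at smallest adjusted p of 0.0558 to 0.116. Without air replicate 2, 3 rows passed, and without silica replicate 2, 1 row. All 4 calls were among those made without silica replicate 4 and without silica replicate 6. Leaving out silica replicate 4 raised the count to 30 higher and 1 lower, and leaving out silica replicate 6 to 15 higher and 1 lower. Without air 2, air 6 and silica 6 together, 2 rows rose, Ubd and Slpi. In that fit, 361 of the 7864 rows were higher and 288 lower at an unadjusted p under 0.05. The background mattered too: with the fit first planned, which takes it from all rows including those that average several bead types, none of the 7864 passed (limma, smallest adjusted p 0.0893, 680 at an unadjusted p under 0.05). In the fit first planned, Zfp532 differed by 0.108, Ppp1r3b by 0.334, LOC313824 by 0.397 and Slpi by 0.759. The background used here was chosen after the data were seen. Median scaling of the arrays left no row, at a smallest adjusted p of 0.236 (limma). The authors' deposited values, which carry no background correction, gave 7 rows higher and none lower.

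**Figure D1:**
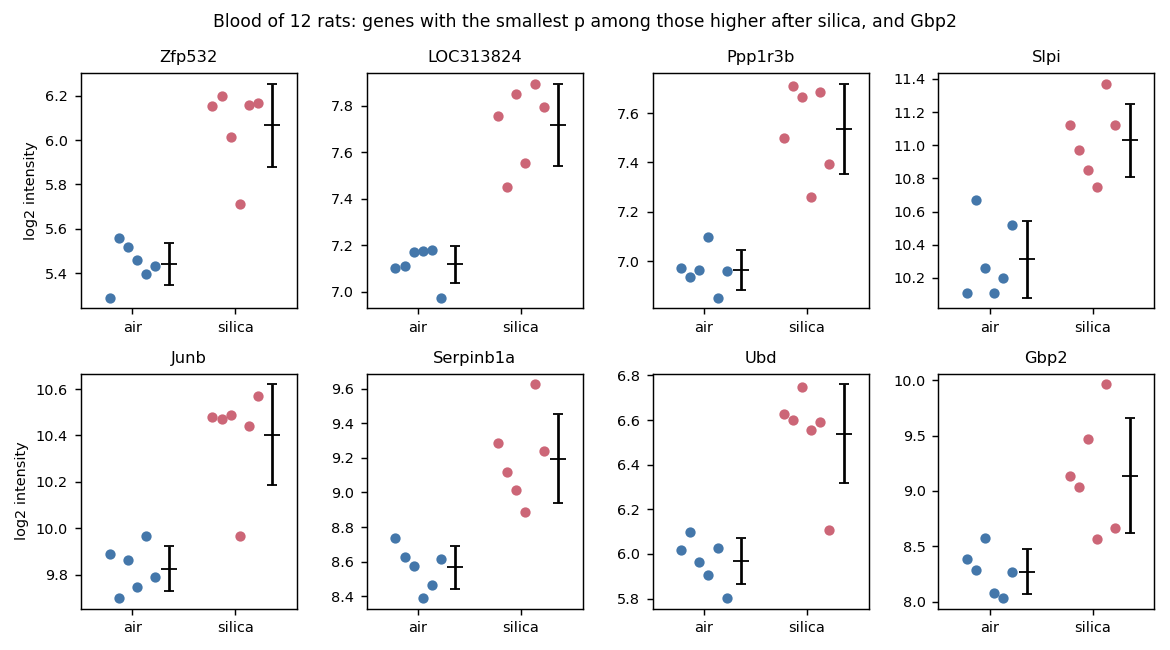
Each point is the log2 intensity of 1 rat's blood (6 after air, blue, replicates 1 to 6 from left to right, and 6 after silica, red), and the bar beside them is the group mean ± SD. The axes do not start at 0 and differ between panels. The 4 genes of the top row passed the threshold and their groups do not overlap; in the bottom row silica replicate 4 is at the highest air level for Junb and silica replicate 6 just above it for Ubd.

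The genes that came next in order of p among those higher after silica were 3 at an adjusted p of 0.0574. Serpinb1a, an intracellular inhibitor of neutrophil serine proteases, lay between 8.39 and 8.737 in air and between 8.886 and 9.625 in silica, a difference of 0.63 ± 0.12 (SE). Ubd, the ubiquitin-like modifier FAT10, which interferon-γ and TNF induce, ran from 5.802 to 6.096 in air and from 6.106 to 6.749 in silica. Junb, an AP-1 transcription factor, differed by 0.58 ± 0.10 (SE), and its groups met at 9.967, the level of both the highest air rat and silica replicate 4. The next places were taken by Hlx (0.62) and N4bp1 (0.56), each with groups apart. Ubd, Hlx and N4bp1 were dim, and with the background first planned they differed by 0.148, 0.167 and 0.095. Anxa1, the glucocorticoid-induced protein annexin A1, was 0.53 higher, Upp1, uridine phosphorylase, 0.53, the C-type lectin Cd302 0.60, and Sbno2 0.57, with adjusted p between 0.102 and 0.116 (limma). A further row of the 15 has only a locus name.

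Among rows lower after silica the smallest adjusted p was 0.115 (limma), for Resp18, which ran from 5.623 to 5.981 in air and from 5.21 to 5.607 in silica. Gstm1, a glutathione S-transferase, was lower by 0.43 ± 0.095 (SE), from 7.322 to 7.603 in air and from 6.789 to 7.284 in silica. Swap70, a guanine nucleotide exchange factor known from B cells, was lower by 0.53 ± 0.12 (SE), with overlapping groups. The phospholipase gene Pla1a (-0.46), the potassium channel subunit Kcnab1 (-0.44), Ell3 (-0.40), Nfyb (-0.36), Tcf20 (-0.39) and Tlcd3a (-0.42) each had groups that did not overlap. Zfp821 (-0.45), Acy3 (-0.46), Alg6 (-0.45) and Pxdc1 (-0.43) overlapped. None of these passed the threshold, and the other 2 of the 15 lowest have locus names only. Resp18, Zfp821, Acy3, Ell3, Nfyb, Tcf20 and Tlcd3a were dim, with means of 5.156 to 6.165. Nfyb was detected on 4 of the 6 silica arrays. With the background first planned, these 7 differed by -0.0421 to -0.0929. Rows picked for a small p also tend to have groups that do not overlap.

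All 11 tested neutrophil markers were higher after silica, 7 of them at an unadjusted p under 0.05 (4.86% of all rows were higher at that p), and none passed the adjusted threshold. Their median difference was 0.28, against -0.0055 over all rows. The mean level of the 11 ran from 8.463 to 8.682 in air and from 8.736 to 9.126 in silica, so the groups did not overlap. Without the 3 arrays that stood apart, 6 of the 11 were higher at an unadjusted p under 0.05 and the median was 0.37. S100a8, a calcium-binding protein that fills the neutrophil cytoplasm, was at 11.52, 11.69 and 12.14 after air (lowest, median, highest) and at 12.0, 12.48 and 12.54 after silica. Csf3r, the receptor for granulocyte colony-stimulating factor, was 0.68 ± 0.17 (SE) higher, the largest difference on the list. With the background first planned, it differed by 0.402, less than S100a8 (0.614).

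The chemokine receptor Cxcr2, which leads neutrophils to inflamed tissue, went from 8.145 to 8.517 in air and from 8.449 to 9.063 in silica (0.45 ± 0.11, SE). Il1r2, the decoy receptor for interleukin-1, was higher by 0.49 ± 0.13 (SE). Mmp8 (0.28) and Mmp9 (0.31), the neutrophil collagenase and gelatinase, and Alox5ap (0.28), the partner of 5-lipoxygenase in leukotriene synthesis, complete the 7. For Mmp9 the highest rat of all was an air rat, replicate 2, at 8.605. Differences were smaller for Trem1 (0.20), the Fc receptor Fcgr3a (0.15) and Cd177 (0.08). Of genes for granule proteins, 4 of 12 on the array were tested and only Chi3l1 reached an unadjusted p under 0.05 (0.42 ± 0.12, SE), while Retnlg differed by 0.01. Mpo, the primary granule gene of immature neutrophils, was among those not tested.

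**Figure D2:**
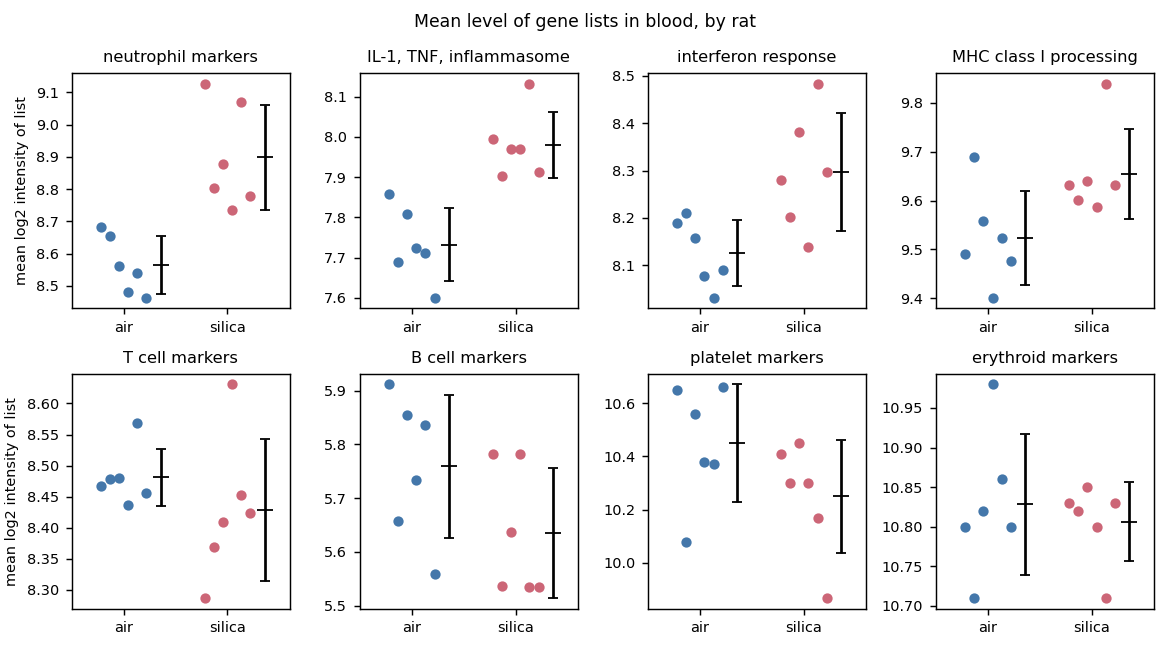
Each point is the mean log2 intensity of the tested members of a gene list in 1 rat's blood (6 after air, blue, and 6 after silica, red, replicates in order), with the group mean ± SD beside them and axes that do not start at 0. The neutrophil markers and the interleukin-1, TNF and inflammasome genes do not overlap between the groups, while T cell, B cell, platelet and erythroid markers overlap.

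Interleukin-1, TNF and inflammasome genes were the other list whose mean level did not overlap, at 7.6 to 7.859 in air and 7.904 to 8.132 in silica. Of 15 tested, 14 were higher, with a median of 0.24, and none passed the adjusted threshold. At an unadjusted p under 0.05, 7 were higher, against 4.86% of all rows. Without the 3 arrays the median was 0.20, with 6 higher at that p. Il1b itself, the cytokine that the inflammasome releases, ran from 11.15 to 11.46 in air (median 11.27) and from 11.41 to 12.1 in silica (median 11.85), a difference of 0.49 ± 0.13 (SE). Myd88, the adaptor of interleukin-1 and toll-like receptors, was higher by the same amount, 0.49 ± 0.13 (SE). Nfkbia, the inhibitor of NF-κB that NF-κB induces, differed by 0.20, with overlapping groups. The remaining 5, named after their values were seen, were the inflammasome sensor Nlrp3 (0.46), the TNF receptor Tnfrsf1a (0.53), Nfkb2 (0.28), Il6r (0.24) and the receptor antagonist Il1rn (0.36).

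Of 14 receptors for microbial patterns and antibodies, 12 were higher, none past the adjusted threshold. At an unadjusted p under 0.05, 5 were higher, against 4.86% of all rows. The median was 0.19 (0.22 and 5 higher at that p without the 3 arrays). With the neutrophil minus lymphocyte score described last as a covariate, the median turned to -0.094, with none higher and 1 lower at that p. Tlr6, which pairs with Tlr2 to sense lipoproteins, was 0.43 ± 0.13 (SE) higher, and Fcgr1a, the high-affinity IgG receptor, 0.45 ± 0.16 (SE). Tlr2 (0.35), Clec4e (0.31) and Clec7a (0.31), also named after their values were seen, were the others. Cd14, the co-receptor for lipopolysaccharide, was lower by 0.31 ± 0.23 (SE), at a p far from the threshold. Among complement genes, 2 of 9 were higher at that p: Cfd, factor D, at 8.885 to 9.445 in air and 9.409 to 10.04 in silica (0.56 ± 0.12, SE), and C4b (0.42). C4b was dim, at a mean of 5.663, and differed by 0.0754 with the background first planned. On the other 9 arrays alone, 4 of the 9 genes were higher at that p and the list's median was 0.03, against 0.082 with all arrays.

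Interferon response genes split. Of 22 tested, 8 were higher at an unadjusted p under 0.05 and none lower, against 4.86% and 4.01% of all rows. None passed the adjusted threshold, and the list's median of 0.09 was smaller than that of the neutrophil markers. Gbp2, an interferon-γ-induced guanylate-binding protein, differed by 0.87 ± 0.19 (SE), or 1.82-fold (adjusted p 0.127, limma). It ran from 8.032 to 8.572 in air (median 8.28) and from 8.564 to 9.964 in silica (median 9.083). The silica rats thus spread over more than 1 log2 unit, and the groups touched at their edges. Irf1, a transcription factor that interferon-γ induces, was at 9.524 to 10.47 in air and 10.16 to 10.68 in silica (0.50 ± 0.14, SE). By contrast, the brightest members of the list differed little: Ifit1 by 0.03 ± 0.10 (SE), although a dimmer row of the same gene was 0.36 ± 0.15 (SE) higher, and Irf7, the regulator of the type I response, by -0.0017 ± 0.14 (SE).

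Others at that p, named after their values were seen, included Ifi44 (0.40), Ifit3 (0.49), Ifit2 (0.30), Oas1a (0.28) and Oasl (0.27). Of 13 genes of MHC class I presentation, 3 were higher at that p, against 4.86% of all rows, with a median of 0.16. Tap1, a subunit of the transporter that carries peptides to class I molecules, lay between 7.452 and 8.001 in air and between 7.779 and 8.353 in silica (0.52 ± 0.12, SE). The classical class I gene RT1-A1 was 0.17 ± 0.079 (SE) higher, and its groups did not overlap (13.03 to 13.22 in air, 13.23 to 13.42 in silica). RT1-N3 was 0.33 higher, while B2m differed by -0.04. Transcripts of close class I paralogs may bind the same bead type, so these RT1 values are uncertain as to gene. Without the 3 arrays that stood apart, 7 interferon genes (median 0.13) and 4 class I genes (median 0.12) were higher at that p. The neutrophil markers given above were higher in the same rats. Their part in either list was not tested, since the score of the covariate fit described last largely coincides with the groups.

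The promoters of Gbp2, Irf1 and Tap1, are shown because these genes had the largest differences of the interferon and class I lists. Each runs from 250 bases before to 50 after the gene's start on its own strand, from RefSeq on GRCr8, and capitals mark a match to the interferon-stimulated response element (ISRE; searched as GAAA, 2 bases of any kind and GAAA) or to the interferon-γ-activated site (GAS; searched as TTCNNNGAA), on either strand. Gbp2 is at chr2:234005477-234005776, plus strand, and holds an ISRE match at bases 220 to 229 of the window. Irf1 is at chr10:38417685-38417984, plus strand, with a GAS match at bases 109 to 117, and Tap1 at chr20:4668494-4668793, minus strand, with an ISRE match at bases 130 to 139.
Gbp2: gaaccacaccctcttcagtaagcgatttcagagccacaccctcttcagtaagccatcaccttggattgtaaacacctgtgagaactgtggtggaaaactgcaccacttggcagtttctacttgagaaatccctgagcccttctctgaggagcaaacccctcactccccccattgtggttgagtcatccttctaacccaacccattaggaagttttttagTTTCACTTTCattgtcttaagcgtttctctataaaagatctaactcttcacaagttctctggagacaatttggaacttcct
Irf1: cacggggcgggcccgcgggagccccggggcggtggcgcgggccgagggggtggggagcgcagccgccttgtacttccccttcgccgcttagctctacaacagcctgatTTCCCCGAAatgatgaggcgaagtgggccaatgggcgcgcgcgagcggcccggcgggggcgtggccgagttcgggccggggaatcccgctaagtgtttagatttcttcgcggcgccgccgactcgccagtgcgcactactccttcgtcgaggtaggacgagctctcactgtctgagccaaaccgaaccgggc
Tap1: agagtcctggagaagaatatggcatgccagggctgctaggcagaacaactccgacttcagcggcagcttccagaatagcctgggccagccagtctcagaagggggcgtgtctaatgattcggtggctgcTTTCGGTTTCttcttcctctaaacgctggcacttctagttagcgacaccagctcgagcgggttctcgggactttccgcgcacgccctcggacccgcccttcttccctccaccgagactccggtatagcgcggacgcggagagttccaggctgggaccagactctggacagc
An ISRE match was found in 12 of the 17 interferon response genes with a promoter in the table (70.6%) and in 9 of 13 class I genes (69.2%), against 3.77% of 27456 promoters. A GAS match was found in 5 of the 17 (29.4%), against 8.68% of all promoters, and in 1 of the 13 class I genes (7.69%). Of genes tested in blood with a promoter, 3.17% had an ISRE match and 7.07% a GAS match. These shares describe lists of known interferon and class I genes and do not bear on silica. Among the 8 interferon genes at an unadjusted p under 0.05, 6 had a promoter in the table and 4 of those an ISRE match (66.7%), a share like that of the whole list.

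Several lymphocyte and class II genes were lower after silica, none past the adjusted threshold. Of 18 T cell markers, 11 were lower, 3 at an unadjusted p under 0.05 (4.01% of all rows were lower at that p), with a median of -0.07. Those 3 are known from naive and central memory T cells: Ccr7, the receptor that guides cells to lymph nodes, went from 9.868 to 10.32 in air and from 9.427 to 10.04 in silica (-0.32 ± 0.12, SE). Tcf7, a transcription factor of naive T cells, differed by -0.19 ± 0.088 (SE), and the costimulatory receptor Cd27 by -0.34 ± 0.13 (SE). The receptor subunits Cd3d (-0.15), Cd3e (-0.11) and Cd3g (-0.08) did not pass that p, and Bcl11b was 0.30 higher. The T cell mean overlapped, at 8.437 to 8.569 in air and 8.287 to 8.631 in silica. The number of T cell markers lower at that p was 2 without the 3 arrays. When the arrays were scaled to equal medians, the T cell median was 0.0071, and Ccr7, Tcf7 and Cd27 missed that p.

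Of 9 B cell markers, 6 were lower, with a median of -0.072, Ms4a1 (CD20, -0.32 ± 0.13, SE) and Bank1 (-0.28 ± 0.12, SE) at an unadjusted p under 0.05. Of all rows, 4.01% were lower at that p. Cd79b, a subunit of the B cell receptor, was 0.34 ± 0.18 (SE) lower and missed that p. The B cell mean level ran from 5.559 to 5.912 in air and from 5.535 to 5.783 in silica. These 9 markers were dim, with means of 5.04 to 6.98. With the background first planned, their median was -0.0083 and Bank1 differed by -0.05. All 7 tested MHC class II genes, which B cells, monocytes and dendritic cells express, were lower, with a median of -0.18, but only Ciita, their master regulator, was at that p (-0.29 ± 0.12, SE). Ciita was close to the floor of the array, at a mean of 5.14, and was detected on 4 of the 6 silica arrays. With the background first planned it differed by -0.03. RT1-Da (-0.18) and RT1-Db1 (-0.29) overlapped between groups. Without the 3 arrays, 3 B cell markers (median -0.19) and 2 class II genes (median -0.15) were lower at that p. The activation marker Cd83 was 0.27 ± 0.11 (SE) lower. With median scaling, Ms4a1, Bank1, Ciita and Cd83 missed that p. Of 11 NK and cytotoxic genes 10 were higher and none was at an unadjusted p under 0.05, with differences of 0.26 for Nkg7, 0.07 for Gzma, 0.16 for the chemokine Ccl5 and -0.06 for the perforin gene Prf1. The monocyte markers split, with 6 of 10 higher and a median of 0.11, and the transcription factor Klf4 was 0.36 ± 0.19 (SE) higher. Leaving out the 3 arrays, 1 NK and cytotoxic gene (median 0.15) and 3 monocyte markers (median 0.08) were higher at that p, against 1 monocyte marker, Fcgr1a, with all arrays.

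Platelet markers were lower by a median of 0.19, all 10 in the same direction, and none at an unadjusted p under 0.05. Gp9, a subunit of the von Willebrand factor receptor, differed by -0.34 ± 0.17 (SE), Clec1b by -0.28 ± 0.14 (SE), Nrgn by -0.29 ± 0.15 (SE) and Pf4 by -0.06. Without the 3 arrays, 4 of the 10 were lower at that p (288 of all 7864 rows were), and the median was again -0.19. In that fit Pf4 differed by 0.02 and Gng11 by -0.004. The platelet mean overlapped, at 10.08 to 10.66 in air and 9.868 to 10.45 in silica. Erythroid genes were level: none of 19 was at that p, the median was -0.0017, and Alas2, the first enzyme of haem synthesis in red cells, differed by 0.10 ± 0.093 (SE). In the fit without the 3 arrays, 1 of the 19 was lower at that p. Hbb differed by -0.02 and the haemoglobin chaperone Ahsp by -0.0017.

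**Figure D3:**
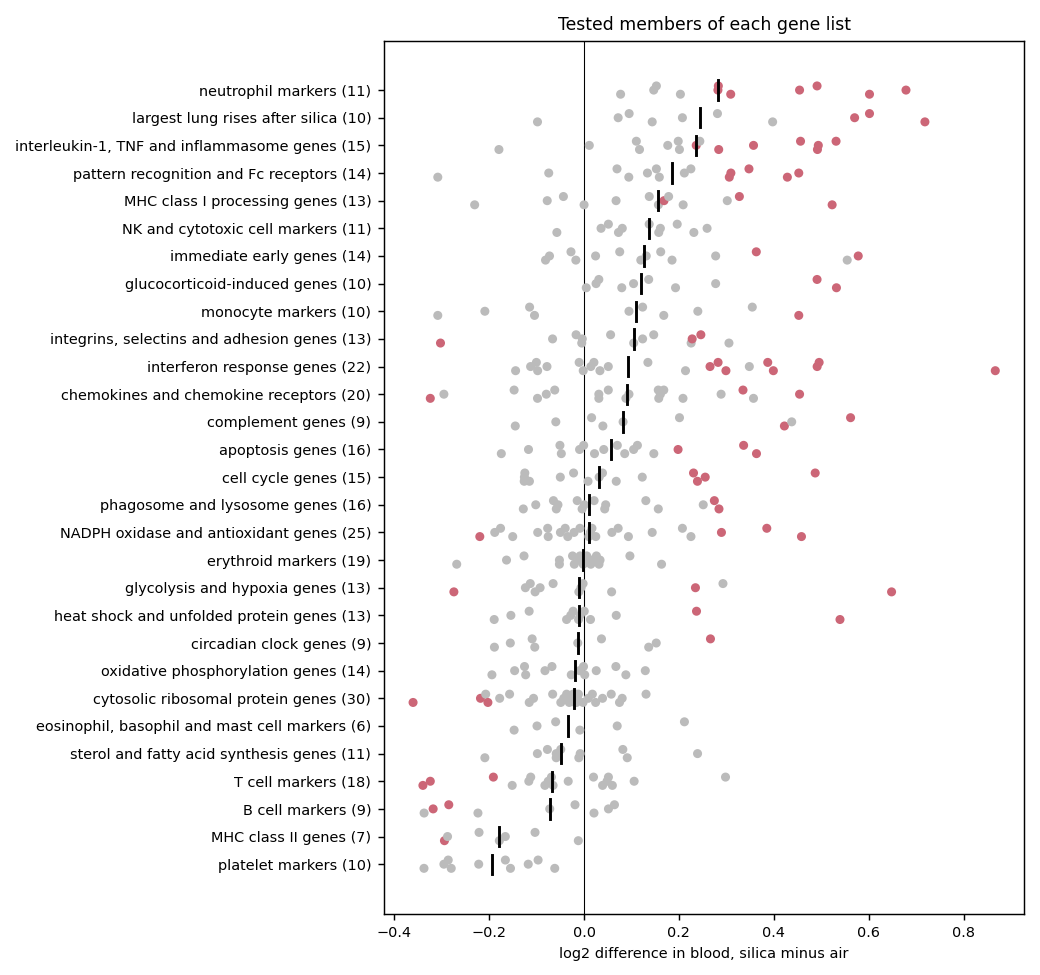
Each point is a tested gene, placed by its log2 difference between silica and air in blood; red points are at an unadjusted p under 0.05 and grey points are not, black bars mark the median of each list, and brackets give the number tested. Lists with at least 6 tested genes are ordered by median, from platelet markers and MHC class II genes (medians -0.19 and -0.18) at the bottom to neutrophil markers (0.28) at the top.

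Other lists differed by a few genes each. Hk3, the hexokinase of myeloid cells, was 0.65 ± 0.16 (SE) higher, at 5.837 to 6.738 in air and 6.683 to 7.293 in silica, while the glycolysis list as a whole had a median of -0.01. With the background first planned, Hk3 differed by 0.227. Mcl1, a survival factor on which neutrophils depend, was 0.36 ± 0.098 (SE) higher. Among immediate early genes, besides Junb, Zfp36, which destabilises cytokine mRNAs, was 0.36 higher, whereas Jund (0.56 ± 0.29, SE) and Dusp1 (0.28 ± 0.15, SE) varied too much between rats to pass an unadjusted p under 0.05. For Jund the difference was 0.10 without the 3 arrays. All 10 glucocorticoid-induced genes were higher, 2 of them at that p, Anxa1 and Il1r2, against 4.86% of all rows. Their median was 0.12 (3 at that p and a median of 0.16 without the 3 arrays). With the score as a covariate, of which Il1r2 is a member, this median turned to -0.05 and none was higher at that p. The chaperone Hsp90aa1 was 0.54 ± 0.19 (SE) higher, but by only 0.14 with the background first planned.

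Thioredoxin reductase (Txnrd1) was 0.38 ± 0.14 (SE) higher, while the 25 oxidase and antioxidant genes had a median of 0.01. Txnrd1 was near the floor of the array, at a mean of 5.293, and differed by 0.0489 with the background first planned. Of 16 phagosome and lysosome genes 2 were higher at an unadjusted p under 0.05, cathepsin S (Ctss, 0.28) and progranulin (Grn, 0.28). Of all rows, 4.86% were higher and 4.01% lower at that p. Itgb1, the β1 integrin chain, was 0.30 ± 0.098 (SE) lower. Of 15 cell cycle genes 4 were higher at that p, Pcna (0.23) and Rrm2 (0.26) among them, but only 1 without the 3 arrays and none with the score as a covariate. The 4 include Aurkb by a row labelled AIM1_PREDICTED on the array, which may be another gene. The row labelled AURKB missed that p (0.236 ± 0.129, SE). Ribosomal protein genes had a median of -0.02, with 3 of 30 lower, led by Rpl3 (-0.36) and Rps3 (-0.22), and none higher. None of the 30 was lower at that p without the 3 arrays, and Rpl3 (-0.20) and Rps3 (-0.12) were closer to 0. Per2 (0.27) was the only clock gene of 9 at that p, and none was without the 3 arrays. None of 14 oxidative phosphorylation genes, 11 sterol and fatty acid synthesis genes, 6 eosinophil, basophil and mast cell markers and 4 plasma cell markers was at that p. No gene of these lists passed the adjusted threshold except those named with it above.

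A list of 20 genes, taken from earlier results as the largest rises in the lungs of the same silica rats, was seen only in part in blood. The list was thus chosen on these animals, and the lung differences are not given here. Of the 20, 10 were tested, 9 of them higher, with a median of 0.24. Only Slpi passed the adjusted threshold. Slpi, Ubd and S100a8 were the 3 higher at an unadjusted p under 0.05, against 4.86% of all rows. The count was also 3, and the median 0.25, without the 3 arrays. Haptoglobin (Hp), an acute-phase protein, was 0.28 ± 0.14 (SE) higher, the immunoglobulin joining chain Jchain 0.40 ± 0.27 (SE) and Retnla 0.10. Haem oxygenase (Hmox1, 0.21), the metallothionein Mt1 (0.14), Ncf1 (0.07) and the monocyte chemokine Ccl2 (-0.10) also overlapped between the groups. Hp, Retnla, Hmox1, Mt1, Ncf1 and Ccl2 were named after their values were seen. The other 10 were detected on at most 5 of 12 arrays: Mmp12, Lcn2, Slc26a4, Ccl19 and Cxcl11 were detected on none, and the osteopontin gene Spp1 on 1 air array and no silica array.

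The component with most of the variance did not separate the groups. The first principal component held 34.4% of it and set air replicate 2 (26.14), silica replicate 6 (18.41) and air replicate 6 (14.26) apart from the other 9, which lay between -9.57 and -0.858. The second component held 13.3%, with air between -0.376 and 10.6 and silica between -17.8 and 1.24. Sv2b, a synaptic vesicle protein, was at 7.088 to 7.376 in the 3 and at 8.488 to 9.579 in the 9. Epn1, an endocytosis adaptor, was at 8.133 to 9.007 against 9.704 to 10.58, and Natd1 and the transcription factor Klf3 were low in the same 3.

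Spi1, which encodes the myeloid transcription factor PU.1, was also low in the 3, at 6.025 to 7.139 against 7.488 to 8.084. Its difference after silica was 0.74 ± 0.30 (SE), and 0.36 without the 3 arrays. Rows with loadings of the other sign were higher in the 3: Oplah, 5-oxoprolinase, at 6.253 to 6.76 against 4.774 to 5.444, Ampd2, AMP deaminase, at 6.719 to 7.362 against 5.39 to 5.895, and Ints1, an Integrator subunit, at 8.146 to 8.595 against 6.789 to 7.316. All 16 rows with the strongest loadings (8 of each sign) kept the 3 apart in blood, as the choice of rows implies. In the lungs of the same 3 rats, 15 of the 16 were detected and in none did the 3 lie apart from the other 9. What set these blood samples apart was not tested.

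**Figure D4:**
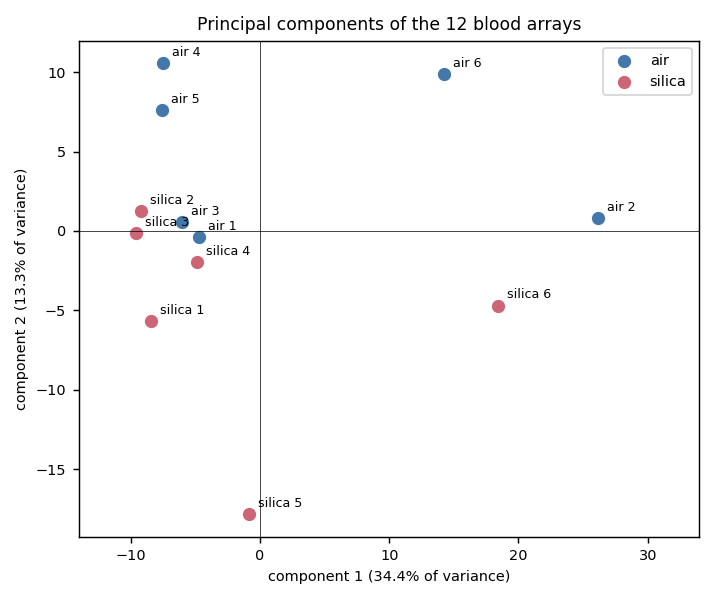
Principal components of the 7864 tested rows, centred and unscaled, with 1 point for each of the 12 blood arrays (air blue, silica red), labelled by group and replicate. Air 2, air 6 and silica 6 lie to the right on component 1 (34.4% of variance), while the silica arrays lie lower on component 2 (13.3%), with overlap.

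The spread of single genes within groups was mostly modest, with a median SD of 0.203, so that only differences several times the median SE of 0.116 could pass a test over all rows. Nop58, a nucleolar protein of small nucleolar ribonucleoproteins, had the largest difference of all, -1.29 ± 0.41 (SE), but it ran from 7.199 to 9.851 in the air rats alone (median 8.849) and from 6.898 to 8.111 in silica (median 7.208). Its adjusted p was 0.3 (limma). Nos2, the inducible nitric oxide synthase, named after its values were seen, had the next largest difference, 1.01 ± 0.28 (SE), at an adjusted p of 0.198 (limma). It ran from 4.541 to 5.764 in air (median 5.154) and from 4.974 to 7.013 in silica (median 6.211), close to the floor of the array. The cytotoxic granzyme gene Gzmc ran from 5.686 to 7.732 in air and from 5.88 to 8.469 in silica. For these genes the range within a group was as wide as the difference between the groups, or wider.

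The neutrophil mean was 0.33 higher after silica, while the T and B cell means differed by only -0.052 and -0.12, with overlapping groups. The balance of these markers was given a value for each rat. This value is the mean of the neutrophil markers minus the average of the T and B cell means. It was 1.44 ± 0.089 (SD, n = 6) in air, from 1.34 to 1.59, and 1.87 ± 0.21 (SD, n = 6) in silica, from 1.53 to 2.09. Silica replicate 4, without which 30 rows rose, had the lowest value of the silica rats and lay inside the air range. With this score as a covariate, no row passed, at a smallest adjusted p of 0.937 (limma), and 389 rows were at an unadjusted p under 0.05 (4.95%), 193 higher (2.45%) and 196 lower (2.49%). The score and the groups largely coincide, so the median SE rose from 0.116 to 0.202. The fit therefore has less power, and for the genes in the score it is circular.

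Differences that shrank with the score included those of Gbp2 (0.87 to 0.16), Il1b (0.49 to 0.06), Irf1 (0.50 to 0.08) and Cd302 (0.60 to 0.12), none of which is in the score. Slpi went from 0.72 to 0.30, Ppp1r3b from 0.57 to 0.36, Zfp532 from 0.62 to 0.36 and LOC313824 from 0.60 to 0.46. Others kept their size: Sbno2 (0.57 to 0.56), N4bp1 (0.56 to 0.54), Nlrp3 (0.46 to 0.48), Mcl1 (0.36 to 0.44), Tap1 (0.52 to 0.51) and, among lower genes, Swap70 (-0.53 to -0.71) and Resp18 (-0.45 to -0.51). The interleukin-1, TNF and inflammasome list kept a median of 0.14, with 3 of 15 higher at an unadjusted p under 0.05. The interferon list kept 0.05, with none higher and 2 lower, and MHC class I genes had a median of -0.0068. Blood cell counts were not used here, and how much of each difference follows cell composition was not tested.

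**Figure D5:**
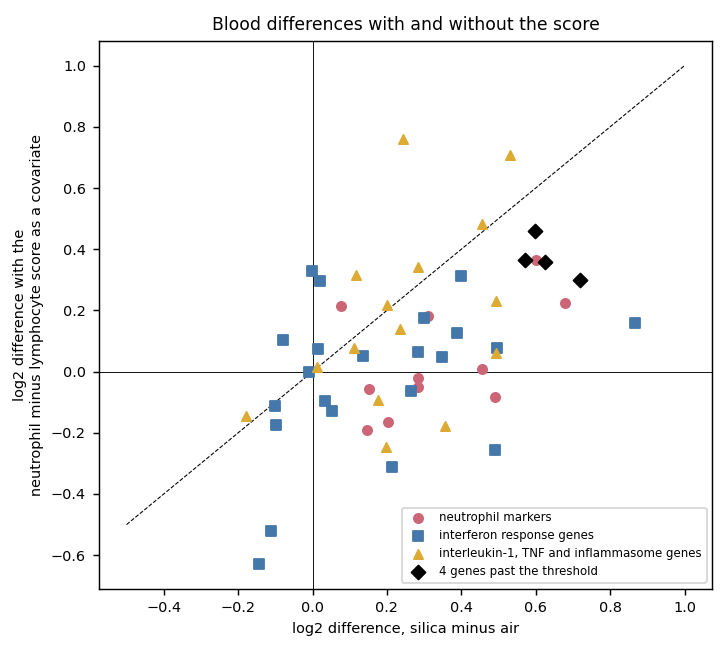
Log2 difference between silica and air in blood (x) against the same difference with the neutrophil minus lymphocyte score of each rat as a covariate (y), for tested neutrophil markers, interferon response genes, interleukin-1, TNF and inflammasome genes and the 4 genes past the threshold; the dashed line marks equal values. The neutrophil markers are part of the score, so their median of -0.021 on the y axis is circular. The interferon genes have a median of 0.049 there. The 4 genes past the threshold have differences of 0.57 to 0.72 on the x axis and smaller ones of 0.30 to 0.46 on the y axis.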

How the data were processed

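Blood RNA of 12 rats (6 after air, 6 after silica) was measured on Illumina rat bead arrays. The deposited values used are the average bead intensity of each row, not normalized, and the detection p-value of that intensity against the array's negative controls, per the file headers. A table of log2 values deposited by the authors served as an alternative; its scale, quantile-like distribution and lack of background correction were found by comparison with the intensities. The submitters' processing notes list BeadStudio, limma and lumi without versions.

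Rows that 6 or more arrays detected at p below 0.05 were kept. Background was corrected by normexp with the mean and SD of the negative controls (823 to 825 an array, inferred from the detection p-values), an offset of 16 was added, the 12 arrays were quantile-normalized, and log2 values were fitted with limma 3.58.1 in R 4.3.3 (lmFit, eBayes, two-sided, Benjamini-Hochberg over 7864 rows). The planned neqc call was changed after the data were seen. On each array 576 to 610 rows average several bead types, so their detection p-values fall between the steps that single negative controls give. With these rows included, the background SD came to 87.5 to 160, against 7.07 to 13.6 without them, and differences of dim rows were compressed (median ratio 0.13 below a mean log2 of 6). Both fits are reported. Scripts were tested on simulated data.

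The members, lists and tests were chosen with earlier results of these data known. Text genes were up to 15 rows in each direction by adjusted p and then p, 2 genes of each list by p and 2 by level (all members of cell type lists may be given), the rows with the largest SD, level and loading on the first component. Others are marked as named after their values were seen. A gene with several rows is represented in a list by its brightest. Symbols were updated to RefSeq (GRCr8) for 16321 of 21792 rows. The number of arrays limits the precision. Alternatives were offset, background, scaling, filter, variance model, array weights, composition covariates, a replicate block and leaving out arrays. A few list members are not reported here by name.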

Additional observations from a re-analysis of the deposited data

Results flagged for a closer look

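Of 266 groups of 6 values tested for a rat far from the other 5 (Dixon's test at its 95% critical value), 29 stood out (10.9%), where chance gives about 1 in 20. These shares cannot be compared, since the values share rats and some genes were chosen for a large SD or for their loading on the first component, on which silica replicate 6 stands apart. Klf3, Natd1, Spi1, Sv2b, Ampd2, Oplah and the component itself are of that kind. Silica replicate 6 accounted for 14 of them. It was the lowest silica rat for Klf3 (8.048), Klf4 (8.544), Mcl1 (9.046), Natd1 (7.531), Nfkb2 (7.574), Pf4 (13.63), Spi1 (7.139), Sv2b (7.088), Tap1 (7.779) and Ubd (6.106). It was the highest for Ampd2 (6.914), Oplah (6.76) and Zfp821 (5.773), and on the first principal component (18.41). For Ubd and Tap1 the other 5 silica rats lay at 6.557 to 6.749 and 8.138 to 8.353.

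Silica replicate 5 was far from its group for Ctss (9.834, highest), Ifi44 (9.792, highest), Nrgn (8.557, lowest), the erythroid mean (10.71, lowest) and the second principal component (-17.82). Silica replicate 4 was the lowest of its group for Junb (9.967) and Upp1 (9.385), toward the air rats in both. Among air rats, replicate 2 was highest for Mmp9 (8.605) and RT1-Db1 (11.57) and lowest for Gp9 (9.758). Replicate 4 was lowest for Cd3d (9.637) and Resp18 (5.623), replicate 5 highest for Nfyb (5.549) and the T cell mean (8.569), and replicate 6 lowest for Irf7 (11.96).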

How the results depend on the processing

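Against 4 rows higher and 0 lower, 0 were higher with median scaling, with the neutrophil minus lymphocyte score as a covariate, with a replicate block and with neqc on all rows. There were 7 higher with the authors' deposited values and 7 with a detection p under 0.01 on all 12 arrays, 8 higher and 1 lower with array weights, and 2 higher without air 2, air 6 and silica 6. Leaving out 1 array gave 0 to 30 higher and 0 to 1 lower, and 530 to 815 rows at an unadjusted p under 0.05. No background correction gave 6. Of 28 settings 12 called no row, and unadjusted counts ran from 389 to 1401. The neqc fit on all rows was the one planned; the background used in its place, its median and MAD form (4 higher) and normexp without negative controls (6 higher) were chosen after seeing the data. The replicate block gave 0 at a smallest adjusted p of 0.0504; same-numbered air and silica rats' deviations correlated at -0.315 to 0.475, so the numbers are not taken as pairs. A block for the array chip was not run, since no chip is given in the sources used here.

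With the score as a covariate, 17 of the 123 genes changed sign on a value counted as a difference: Alox5ap -0.0498, Bank1 0.027, Ccr7 0.0627, Cd27 0.0562, Chi3l1 -0.0094, Clec4e -0.165, Clec7a -0.123, Fcgr1a -0.0874, Ifit3 -0.258, Il1r2 -0.0818, Il1rn -0.176, Mmp8 -0.0212, Oasl -0.0618, Tcf7 0.00476, Tlr2 -0.00722, Tlr6 -0.0513 and Txnrd1 -0.154. Alox5ap, Il1r2, Mmp8, Bank1, Ccr7, Cd27 and Tcf7 are themselves in the score; for the others the cause was not tested. Medians ran from -0.021 to 0.38 for neutrophil markers and from 0.14 to 0.32 for interleukin-1, TNF and inflammasome genes over all settings. T cell medians changed sign, from -0.1 to 0.059, and B cell medians ran from -0.3 to -0.0083.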
